A study of Mus musculus with 6 samples.

Results

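The 6 mouse GATA transcription factors, Gata1 to Gata6, were examined in RNA-seq libraries of FLK1+ mesodermal cells. Members were found by their gene symbol in the deposited table of 14005 genes. Of the 6 members, 5 had a row, and all 5 passed the filter on low values that left 13991 genes for testing. Gata5 had no row under its symbol or its Ensembl identifier (ENSMUSG00000015627), so no value is given for it. Of the members with a row, 3 (Gata1, Gata2 and Gata3) are the haematopoietic members of the family and 2 (Gata4 and Gata6) are cardiac and endodermal members.

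The libraries came from mouse embryonic stem (ES) cells that had been differentiated as embryoid bodies (EBs) for 3.5 days, and FLK1+ cells were isolated on magnetic columns with a FLK1 antibody. WT cells were of the J1 ES line, and Scl-/- cells were of an ES line in which both copies of Scl (Tal1) are disrupted. Each group had 3 libraries from independent differentiations, but each genotype was represented by 1 ES line, so genotype and line cannot be told apart. The strain was given as C57Bl/6 X Sv129 for 3 libraries and with another Sv number for the other 3, which belong to both groups. The depth was 38623641 to 40769209 reads on listed genes in WT and 42108168 to 47621120 in Scl-/- libraries. Values are in CPM, which scales reads by the size of each library, and 3 reads amount to 0.0615 to 0.0784 CPM. The disrupted gene Tal1 was at 303, 182 and 306 CPM in the WT libraries and at 9.35, 5.68 and 5.87 CPM in the Scl-/- libraries, in the order of replicates 1 to 3 that is kept throughout. Kdr, which encodes FLK1, was at 856 ± 20.4 CPM in WT and 770 ± 43.8 CPM in Scl-/- cells (SD, n = 3), and all 7 markers of FLK1+ mesoderm had a row.

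GATA factors are zinc-finger proteins that bind DNA motifs centred on the letters GATA. GATA1 drives erythroid and megakaryocytic differentiation, GATA2 acts in haematopoietic stem and progenitor cells and in endothelium, and GATA3 is best known in T cells. GATA4, GATA5 and GATA6 act in heart and endoderm. In blood cells SCL binds E-boxes together with E proteins and joins GATA1 or GATA2 in a complex bridged by LMO2 and LDB1.

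In the mm9 assembly and its GENCODE annotation, Gata1 (ENSMUSG00000031162) lies on the minus strand of chromosome X from 7536386 to 7555197, and Gata2 (ENSMUSG00000015053) on the plus strand of chromosome 6 from 88143885 to 88157024. Gata3 (ENSMUSG00000015619) lies on the minus strand of chromosome 2 from 9778705 to 9811661, and Gata4 (ENSMUSG00000021944) on the minus strand of chromosome 14 from 63817759 to 63890529.

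Promoter windows from RefSeq (build GRCm38.p6, 250 bases before to 50 after the start) were examined for 4 members. None was examined for Gata4 and Gata6, which does not show that RefSeq lacks windows for them. The windows of the haematopoietic members are given here, because 2 of them fell in Scl-/- cells and 1 did not pass the test. Capitals mark E-boxes (CANNTG) and GATA motifs (the letters GATA after an A or T and before an A or G), searched on both strands.
Gata1, chrX:7967861-7968160, minus strand: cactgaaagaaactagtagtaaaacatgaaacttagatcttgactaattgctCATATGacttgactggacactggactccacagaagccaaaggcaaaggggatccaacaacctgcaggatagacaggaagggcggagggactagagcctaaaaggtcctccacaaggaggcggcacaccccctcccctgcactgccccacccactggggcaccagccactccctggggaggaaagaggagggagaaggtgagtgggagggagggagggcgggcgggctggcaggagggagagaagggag
Gata2, first window, chr6:88193641-88193940, plus strand: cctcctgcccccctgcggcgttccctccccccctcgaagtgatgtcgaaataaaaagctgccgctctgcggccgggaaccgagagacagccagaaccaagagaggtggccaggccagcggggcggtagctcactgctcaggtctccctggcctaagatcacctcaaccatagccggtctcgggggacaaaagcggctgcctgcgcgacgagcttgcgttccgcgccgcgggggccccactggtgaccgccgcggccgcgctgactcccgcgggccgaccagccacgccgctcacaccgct
Gata2, second window, chr6:88198414-88198713, plus strand: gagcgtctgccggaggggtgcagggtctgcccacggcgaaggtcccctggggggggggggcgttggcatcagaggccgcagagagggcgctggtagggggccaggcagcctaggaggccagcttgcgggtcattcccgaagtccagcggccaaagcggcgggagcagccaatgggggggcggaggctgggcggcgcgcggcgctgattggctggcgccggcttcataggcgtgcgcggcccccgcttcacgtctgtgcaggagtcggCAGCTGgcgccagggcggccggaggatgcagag
Gata3, chr2:9878551-9878850, minus strand: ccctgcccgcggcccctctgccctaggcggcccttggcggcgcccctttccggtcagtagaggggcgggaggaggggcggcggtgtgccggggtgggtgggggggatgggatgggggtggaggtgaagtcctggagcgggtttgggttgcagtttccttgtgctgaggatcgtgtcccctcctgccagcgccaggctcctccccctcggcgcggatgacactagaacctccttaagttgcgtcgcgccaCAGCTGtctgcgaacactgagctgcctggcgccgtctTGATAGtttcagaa
The Gata1 window held 1 E-box, CATATG, which begins 198 bases before the start. The first Gata2 window held neither motif, and the second held 1 E-box, CAGCTG, which begins 17 bases after the start. The Gata3 window held 1 E-box, CAGCTG, which begins 1 base before the start, and 1 GATA motif, TGATAG, which begins 36 bases after it. Over all 32851 RefSeq windows of this length, 72.3% held an E-box and 29.8% a GATA motif.

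Gata1 and Gata2 were lower in Scl-/- than in WT cells, Gata3 did not pass the test in either direction, and Gata4 and Gata6 had higher means in Scl-/- cells and were called when libraries were paired by replicate number. A gene was called at an adjusted p under 0.05 (limma, Benjamini-Hochberg over the 13991 genes tested) and an absolute log2 fold change above 0.48. Without the pairing, 2 of the 5 members were called lower, against 1.57% of all genes tested, and 0 were called higher, against 0.793%, with 2 (Gata4 and Gata6) higher at an unadjusted p under 0.05. With the replicate number as a block, the same 2 were called lower (6.6% of all genes) and 2, Gata4 and Gata6, were called higher (6.04% of all genes). Every Scl-/- library lay below every WT library for 2 members (10.7% of all genes), and no member had every Scl-/- library above every WT library (11% of all genes). Gata1 counts among the lower members, but it reached the 0.5 CPM of the filter in WT libraries alone, so it could only come out lower. With 3 libraries a group, p-values without the block measure the spread between differentiations of these lines. Those with the block measure the spread of the differences within pairs. In bulk RNA, fewer cells of a type and less RNA per cell cannot be told apart.

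**Figure D1:**
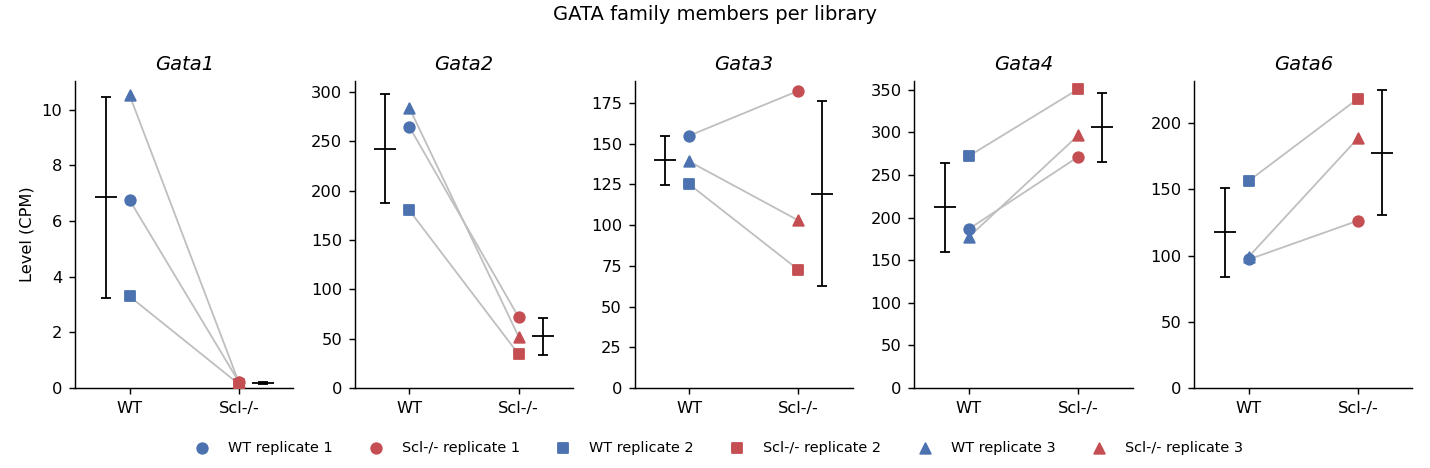
Level in CPM of each GATA member with a row, in each of 3 WT and 3 Scl-/- libraries. Markers give the replicate number, grey lines join libraries of the same number, and bars give the mean ± SD of each group. Gata1 and Gata2 fell in all 3 pairs without overlap between the groups, Gata4 and Gata6 were higher in all 3 pairs with overlap, and Gata3 was higher in pair 1 and lower in pairs 2 and 3.

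Gata1 was at 6.75, 3.29 and 10.5 CPM in the WT libraries and at 0.225, 0.145 and 0.204 CPM in the Scl-/- libraries. Every Scl-/- library was far below every WT library. The Scl-/- values rest on 11, 6 and 9 reads, against 269, 126 and 433 in WT, and with exact Poisson intervals for counting error the highest Scl-/- value reached no more than 0.403 CPM and the lowest WT value no less than 2.74 CPM. The mean fell from 6.85 ± 3.61 CPM in WT to 0.192 ± 0.0417 CPM in Scl-/- cells (SD, n = 3), and pooled reads gave a WT level 35.8 times that of Scl-/- cells (95% interval 24.3 to 55.2, counting error only). On the log2(CPM + 0.5) scale, which understates the change of so low a gene, the fold change was -3.28 (SE 0.37, limma adjusted p = 0.00857, or 1.6e-04 with the block).

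Gata2 was at 265, 180 and 284 CPM in WT and at 71.9, 34.4 and 52.2 CPM in Scl-/- libraries. The groups did not overlap, and the lowest WT library was well above the highest Scl-/- library. Mean levels were 243 ± 55.2 CPM and 52.8 ± 18.8 CPM (SD, n = 3), a ratio of 4.60. The log2 fold change was -2.23 (SE 0.28, limma adjusted p = 0.0106, or 1.9e-05 with the block), with differences of -1.87, -2.37 and -2.43 in the 3 pairs. The calls of both Gata1 and Gata2 in the fit without the block were lost without WT replicate 1 (limma adjusted p = 0.063 and 0.073). Their log2 fold changes were then -3.23 and -2.15. In that setting 0 members and 44 of all 13991 genes tested were called, against 330 genes from all 6 libraries. No single WT or Scl-/- library brought either log2 fold change closer to 0 than -2.92 for Gata1 or -1.95 for Gata2.

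Unlike Gata1, which had 26 reads over all Scl-/- libraries, Gata2 kept between 1421 and 3506 reads in each Scl-/- library. The log2 ratio of Gata1 to Gata2, from CPM without a pseudocount, was -5.29, -5.77 and -4.75 in WT and -8.32, -7.89 and -8.00 in Scl-/- libraries. It was lower in every Scl-/- library, with changes of -3.02, -2.11 and -3.24 in the 3 pairs and a mean change of -2.79. An exact two-sided permutation test gave p = 0.1, which is the smallest p that 3 against 3 libraries allow. With 0.5 added to both genes, which is more than the Gata1 level of any Scl-/- library, the mean change was -1.06.

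Gata3 was at 155, 125 and 139 CPM in WT and at 182, 72.6 and 103 CPM in Scl-/- libraries. Scl-/- replicate 1 was the highest of all 6 libraries and the other two were the lowest, so that the groups overlapped. The log2 fold change was -0.33, with a 95% interval of -1.03 to 0.38 (limma adjusted p = 0.676), or of -0.70 to 0.05 with the block (adjusted p = 0.186). The differences within pairs were 0.24, -0.78 and -0.43. With both libraries numbered 1 left out, a setting chosen after the values were seen, the blocked log2 fold change was -0.61 (limma adjusted p = 5.9e-04) and Gata3 was called lower. The sources used here do not say whether counting used strand, so genes that share exon bases with a member could share reads with it. At Gata3, Gm13256 on the other strand and 9230102O04Rik on the same strand cover 3.90% and 1.94% of its exon bases, with log2 fold changes of -0.27 and -0.63, and neither was called. The gene 4930412O13Rik overlaps Gata3 but shares 0 exon bases with it.

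Gata4 was at 187, 272 and 177 CPM in WT and at 271, 350 and 296 CPM in Scl-/- libraries. Scl-/- levels were higher in each pair, but WT replicate 2 lay just above Scl-/- replicate 1. The means were 212 ± 52.2 CPM in WT and 306 ± 40.5 CPM in Scl-/- cells (SD, n = 3), a ratio of 1.44. The log2 fold change was 0.55 (SE 0.18, limma adjusted p = 0.179), and it was called with the block (adjusted p = 0.00239, 95% interval 0.37 to 0.73). Without WT replicate 2 and without the block it was 0.74 (limma adjusted p = 0.0459), which also called it.

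Gata6 was at 97.0, 156 and 99.1 CPM in WT and at 126, 218 and 188 CPM in Scl-/- libraries. WT replicate 2 again lay above Scl-/- replicate 1, and each pair was higher in Scl-/- cells. The means were 117 ± 33.6 CPM and 178 ± 46.9 CPM (SD, n = 3), a ratio of 1.51. The log2 fold change was 0.59 (SE 0.25, limma adjusted p = 0.275, or 0.00544 with the block, whose 95% interval was 0.36 to 0.83). Gata6 was not called in any fit without the block. With the block and both libraries numbered 3 left out, also chosen after the values were seen, Gata4 was at 0.45 (limma adjusted p = 0.021) and Gata6 at 0.43 (adjusted p = 0.02), under the fold threshold, so that neither was called. The gene (ENSMUSG00000005836) lies on the plus strand of chromosome 18 from 11052508 to 11085633 of mm9. The lincRNA 1010001N08Rik (ENSMUSG00000087274) covers 1.82% of the Gata6 exon bases and had 4.19 ± 1.27 CPM in WT and 5.70 ± 2.02 CPM in Scl-/- cells (SD, n = 3).

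**Figure D2:**
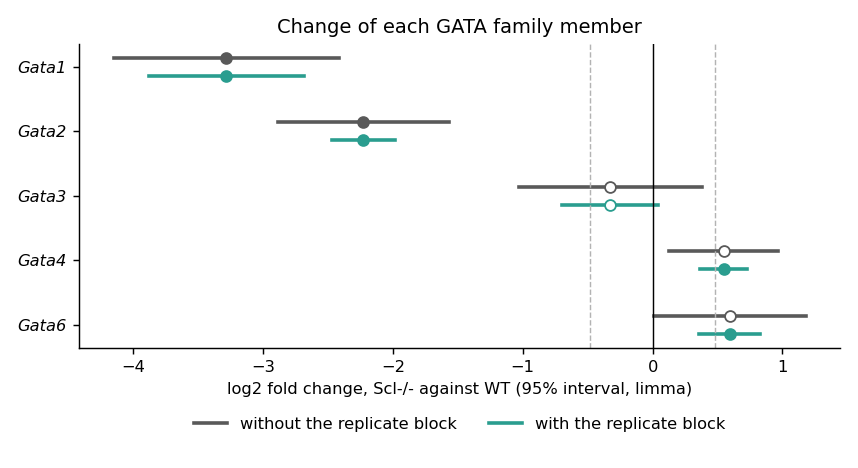
Log2 fold change of each GATA member, Scl-/- against WT, with its 95% interval from limma without (grey) and with (green) the replicate block. Filled points were called, and dashed lines mark the fold-change threshold of 0.48 in each direction. Gata1 at -3.28 and Gata2 at -2.23 were called in both fits, Gata4 at 0.55 and Gata6 at 0.59 with the block alone, and Gata3 at -0.33 in neither.

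The mean ratio of Gata4 to Gata6 moved by less than the spread between libraries of either group. Its log2 value, from CPM without a pseudocount, was 0.94, 0.80 and 0.84 in WT and 1.10, 0.68 and 0.65 in Scl-/- libraries, with a mean change of -0.05 (exact permutation p = 0.9). The log2 ratio of Gata2 to Gata4 was 0.50, -0.60 and 0.68 in WT and -1.92, -3.35 and -2.50 in Scl-/- libraries. The groups were well apart, with a mean change of -2.79. Among the haematopoietic members, Gata2 to Gata3 went from a mean of 0.78 to -1.13, with a change of -1.91 and no overlap. Of the 10 pairs of members, the 7 that include Gata1 or Gata2 did not overlap between the groups, as neither gene did alone. Each had an exact permutation p of 0.1, the smallest that this design allows, and a Benjamini-Hochberg adjusted p of 0.1429 over the 10 pairs. The 3 pairs that overlapped were those among Gata3, Gata4 and Gata6. Gata3 against Gata4 changed by -0.30, -1.15 and -1.18 within the pairs of libraries, with a mean of -0.88 (exact permutation p = 0.2 without the pairing). Gata3 against Gata6 changed by -0.14, -1.27 and -1.36, with a mean of -0.92 (exact permutation p = 0.3 without the pairing). Both were lower in Scl-/- cells in all 3 pairs, and least in pair 1.

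**Figure D3:**
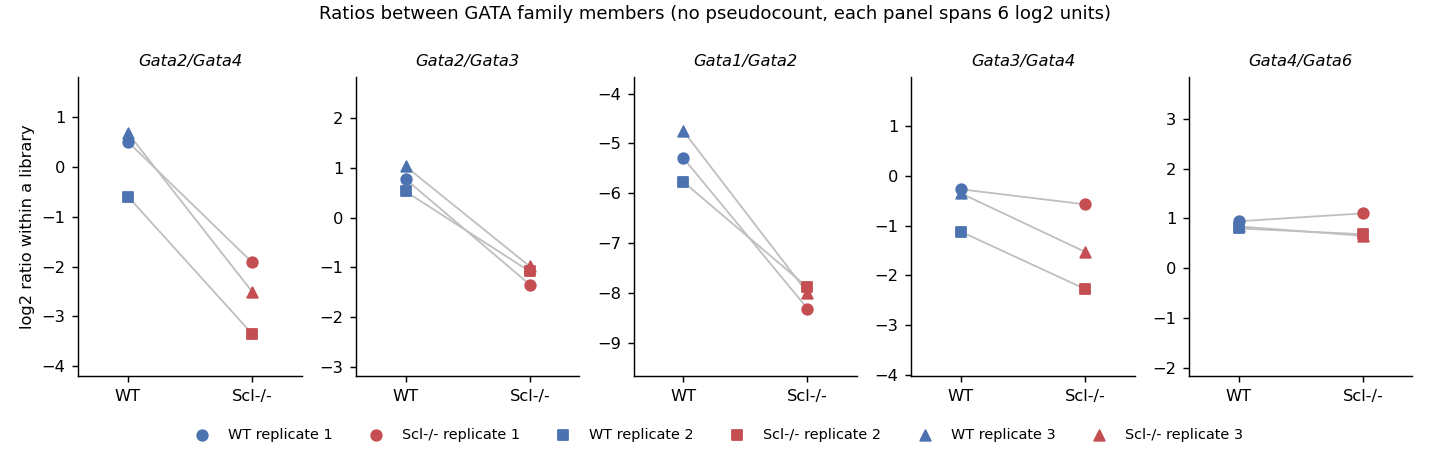
Log2 ratio of 5 pairs of GATA members within each library, from CPM without a pseudocount, with libraries of the same replicate number joined. Each panel spans the same number of log2 units. Gata2/Gata4, Gata2/Gata3 and Gata1/Gata2 were lower in every Scl-/- than in every WT library, whereas Gata3/Gata4 and Gata4/Gata6 overlapped.

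Levels were compared between members as CPM per kb of annotated exon. In WT, Gata2 averaged 72.5 ± 16.5, Gata4 54.2 ± 13.4, Gata6 36.8 ± 10.5, Gata3 35.1 ± 3.75 and Gata1 2.81 ± 1.48 CPM per kb (SD, n = 3). Each neighbour in this order overlapped the next except Gata1, which was lowest in all 6 libraries. In Scl-/- cells Gata4 averaged 78.3 ± 10.4, Gata6 55.6 ± 14.7, Gata3 30.0 ± 14.3, Gata2 15.8 ± 5.60 and Gata1 0.0786 ± 0.0171 CPM per kb (SD, n = 3). Gata2 was thus highest in WT replicates 1 and 3, second to Gata4 in WT replicate 2, and the fourth of 5 in each Scl-/- library. Gata4 was highest in all 3 Scl-/- libraries and did not overlap Gata6 there, while Gata6 overlapped Gata3 and Gata3 overlapped Gata2. Lengths of the longest transcript gave the same order in each library. The WT means of Gata3 and Gata6 changed places with that length, at 43.4 ± 4.63 and 36.8 ± 10.5 CPM per kb (SD, n = 3). With either length Gata3 lay above Gata6 in WT replicates 1 and 3.

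The summed level of the 5 members was 199, 205 and 200.3 CPM per kb in WT and 176, 187 and 176 CPM per kb in Scl-/- libraries. Its make-up shifted more than its size. The haematopoietic members made up 60.7%, 42.2% and 61.9% in WT and 38.2%, 15.3% and 23.6% in Scl-/- libraries. The groups did not overlap, but WT replicate 2 and Scl-/- replicate 1 were close. Gata2 alone went from 39.7%, 26.2% and 42.3% to 12.2%, 5.5% and 8.84%. Gata4 made up 24.0%, 33.9% and 22.6% in WT and 39.3%, 48.1% and 43.0% in Scl-/- libraries. The mean log2(CPM + 0.5) of the haematopoietic minus that of the cardiac members was -1.02, -2.23 and -0.81 in WT and -3.13, -4.55 and -3.92 in Scl-/- libraries. It was lower in every Scl-/- library, with group means of -1.35 and -3.87. The Scl-/- mean was -4.29 with a pseudocount of 0.1 and -3.60 with a pseudocount of 1. Gata1 counts in the haematopoietic mean as much as Gata2, despite its low level.

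**Figure D4:**
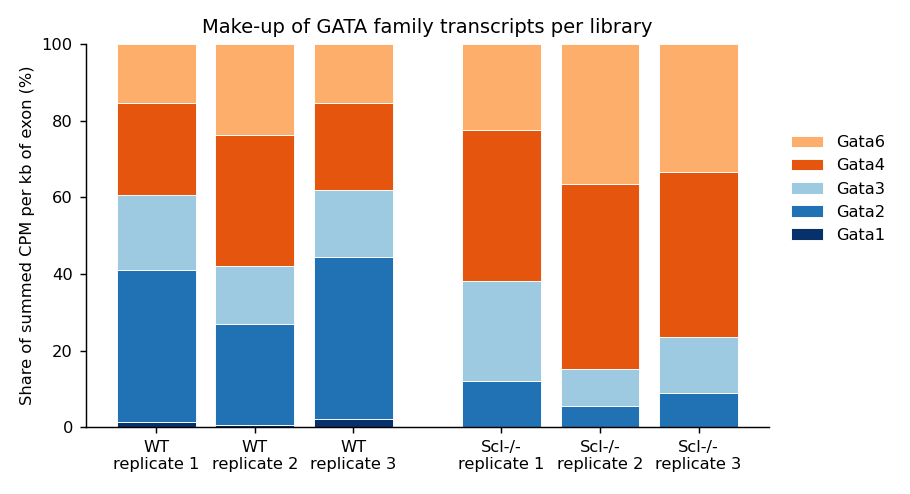
Share of each GATA member in the summed CPM per kb of exon of the 5 members, for each library. The haematopoietic members (blue) made up 42.2% to 61.9% of the sum in WT and 15.3% to 38.2% in Scl-/- libraries, and the cardiac members (orange) made up the rest.

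The members also differed by replicate number. Replicate 2 was the lowest library of its group for all 3 haematopoietic members and the highest for both cardiac members, in WT and in Scl-/- cells alike. Sums of markers of some other cell types differed along with it. The summed haemato-endothelial markers (Tal1, Cdh5, Pecam1, Tek and Itga2b, 5 of 5 with a row) were 489, 277 and 540 CPM in WT and 39.2, 18 and 51.5 CPM in Scl-/- libraries, lowest in replicate 2 of each group. Among them, Itga2b was lowest in Scl-/- replicate 1 (2.21, 2.51 and 2.86 CPM in Scl-/- libraries). The pluripotency markers (Pou5f1, Nanog, Sox2 and Zfp42, 4 of 4) summed to 86.0, 150.4 and 109.9 CPM in WT and 87.3, 227 and 216 CPM in Scl-/- libraries, highest in replicate 2 of each group. Pou5f1 made up most of this sum, at 71.6, 190 and 177 CPM in Scl-/- libraries. Sox2 (1.99, 4.30 and 6.89 CPM) and Zfp42 (4.18, 5.92 and 9.73 CPM) were instead highest in Scl-/- replicate 3. The part of these cell types in the GATA values was not tested.

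Other cell types were set beside the members in the same way. FLK1+ mesoderm markers (7 of 7) summed to between 1936 and 2102 CPM in WT and between 2002 and 2223 CPM in Scl-/- libraries, and among them Etv2 rose from 127 ± 11.8 to 217 ± 20.7 CPM (SD, n = 3; log2 fold change 0.78, limma adjusted p = 0.0175). Kdr (-0.15) and Hand1 (-0.45) were not called. Aplnr, the apelin receptor gene, was called lower with the block alone, at -0.54 (limma adjusted p = 0.114, or 0.0191 with the block). Pdgfra (0.88) and T (0.74) were called higher with the block alone. Mesp1, a regulator of cardiac mesoderm, was likewise called higher with the block alone, at a log2 fold change of 1.4 (limma adjusted p = 0.153, or 1.6e-04 with the block). Of 5 erythroid markers, 2 (Hbb-bh1 and Alas2) had a row, with sums of 9.25 to 13.6 CPM in WT and 5.10 to 8.05 CPM in Scl-/- libraries. Of 9 endoderm markers, Sox17 alone had a row, at 6.53 to 22 CPM in WT and 0.967 to 5.56 CPM in Scl-/- libraries, and Foxa2, Hnf4a, Afp and Ttr were among the 8 without one. The higher Gata4 and Gata6 values came with lower Sox17 values and no row for the other endoderm markers. Sox17 is also expressed in early endothelium, and the part of endoderm cells in the GATA values was not tested. Of 3 neurectoderm markers, Pax6 had a row, at 12.7 to 15.4 CPM in WT and 13.9 to 15.5 CPM in Scl-/- libraries.

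Most of the genes that work with the haematopoietic GATA factors were lower with them. Of 13 such partners, 12 were tested, all 12 had a negative log2 fold change, and 7 were called lower without and 9 with the block. Over all 13991 genes tested, 6747 had a negative log2 fold change, and 1.57% were called lower without and 6.6% with the block. The median of the partners was -2.16 against 0.01 for all genes tested. The largest changes were those of Cbfa2t3, a corepressor of the SCL complex (-5.25), and Tal1 itself (-5.14). Tal1 is the disrupted gene, so its fall was set by the design, and it counts in these numbers and in the median. The ETS factors Erg (-3.11) and Fli1 (-3.09), the SCL relative Lyl1 (-2.69) and Runx1 (-2.52), a regulator of definitive haematopoiesis, were also called in both fits, as was Spi1, which encodes PU.1 (-1.81). Zfpm1, which encodes the GATA1 cofactor FOG1, was called with the block alone: it had 254 ± 48.2 CPM in WT and 160 ± 23.6 CPM in Scl-/- cells (SD, n = 3; log2 fold change -0.66, limma adjusted p = 0.0991, or 0.00216 with the block). Lmo2 was also called with the block alone (-0.50). The general partners Ldb1 (-0.11), Tcf3 (-0.07) and Tcf12 (-0.19) were not called, and Klf1 had no row. Without WT replicate 1 and without the block, 2 partners were called, and 44 of all 13991 genes tested.

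Of 17 haematopoietic target genes of GATA1 and GATA2, 7 had a row. All 7 were called lower with the block and 3 without it, against 6.6% and 1.57% of all genes tested. Gfi1b and Hbb-bh1 count in both numbers. They reached the 0.5 CPM of the filter in WT libraries alone, so they could only come out lower. The 7 had a median log2 fold change of -1.59. Gfi1b, an erythroid and megakaryocytic repressor, had 255, 112 and 477 reads in WT and 5, 2 and 3 in Scl-/- libraries. Pooled reads gave a WT level 94.97 times that of Scl-/- cells (95% interval 51.4 to 199, counting error only), and the log2 fold change was -3.52 (limma adjusted p = 0.00948). Itga2b, the CD41 antigen, fell by 2.84 on the log2 scale (limma adjusted p = 0.00857). Hbb-bh1, an embryonic β-like globin, averaged 1.29 CPM in WT and had 0 reads in each Scl-/- library, so that it was at least 19.2-fold lower against a floor of 3 reads per library. The median of the list was the same, -1.59, with Hbb-bh1 at that bound. Nfe2 (-1.59), the erythropoietin receptor gene Epor (-0.87), the stem cell factor receptor gene Kit (-0.76), which had the highest mean level of the list, and the haem synthesis gene Alas2 (-0.64) were called with the block alone. Among the 10 targets without a row were Slc4a1, Pf4 and the adult globin gene Hba-a1. Without WT replicate 1 and without the block, 0 of the 7 were called, with 3 called from all 6 libraries. Over all 13991 genes tested, 44 were called in that setting, against 330 from all 6 libraries.

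Among the partners and targets of the cardiac members, none was called from all 6 libraries without the block, and calls with it went both ways. Over all genes tested, 6.6% were called lower and 6.04% higher with the block. Of 10 cardiac partners, 9 had a row and 8 of these had a negative log2 fold change, with a median of -0.33. Without the block limma called 0 of the 9, with 2 at an unadjusted p under 0.05. With it, Zfpm2, which encodes the GATA4 cofactor FOG2, was called lower (3.24 ± 0.839 CPM in WT and 1.72 ± 0.162 CPM in Scl-/- cells, SD, n = 3; log2 fold change -0.73, limma adjusted p = 0.136, or 0.0276 with the block) and Isl1 was called higher (0.57). Both were low genes, and 3, 0 and 1 of the partners were called with the block when both libraries numbered 1, 2 or 3 were left out. Over all 13991 genes tested, 2062, 1122 and 1210 were called in these settings. Hand1, the most abundant of the list, had 419 ± 66.9 CPM in WT and 318 ± 115.5 CPM in Scl-/- cells (SD, n = 3) and was not called. Tbx5 had no row.

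Of 12 cardiac target genes of GATA4 and GATA6, 8 had a row. Their median log2 fold change was 0.40. Without the block limma called 0 of the 8, with 5 at an unadjusted p under 0.05. With it, 4 sarcomere or ion-handling genes were called higher: Myl7 (1.83), Actc1 (0.89), Slc8a1 (0.67) and Tnni3 (0.64). Over all genes tested, 6.04% were called higher and 6.6% lower with the block. Myl7, an atrial myosin light chain, went from 5.30 ± 2.48 to 19.96 ± 7.25 CPM (SD, n = 3) without overlap (limma adjusted p = 0.0546, or 1.5e-04 with the block). With chromosome centring its log2 fold change was 1.53 (limma adjusted p = 0.081, or 4.3e-04 with the block). It was the 1 cardiac target called without the block when a library was left out, at an adjusted p of 0.023 without WT replicate 2 and 0.037 without Scl-/- replicate 1 (limma). With the block, the calls went from 5 to 2, Myl7 among them, when both libraries numbered 2 or both numbered 3 were left out. Over all 13991 genes tested, calls went from 1768 to 1122 and 1210 in these settings. Ccnd2, a cyclin and not a muscle gene, was called lower with the block (-0.53). Tnnc1, the most abundant, had 622 ± 68.9 CPM in WT and 571 ± 45.7 CPM in Scl-/- cells (SD, n = 3) and was not called, and Nppa, Nppb, Myh6 and Tnnt2 had no row.

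Of 12 endoderm genes of the GATA4 and GATA6 programme, 3 had a row. Sox7 (-2.37) and Sox17 (-2.10), which are also expressed in early endothelium, were called lower with the block, against 6.6% of all genes tested. The third, Dab2, had a log2 fold change of 0.24 and was not called. Without the block limma called 0 of the 3, with 2 at an unadjusted p under 0.05. The 9 other genes with GATA-type zinc fingers, among them the NuRD subunits Gatad2a and Mta1, had log2 fold changes between -0.21 and 0.11. Gatad2a, their most abundant, was at 500.4 ± 14.8 CPM in WT and 512 ± 7.84 CPM in Scl-/- cells (SD, n = 3). In this list 0 genes were called by limma in either fit, and 0 without and 1 with the block were at an unadjusted p under 0.05.

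**Figure D5:**
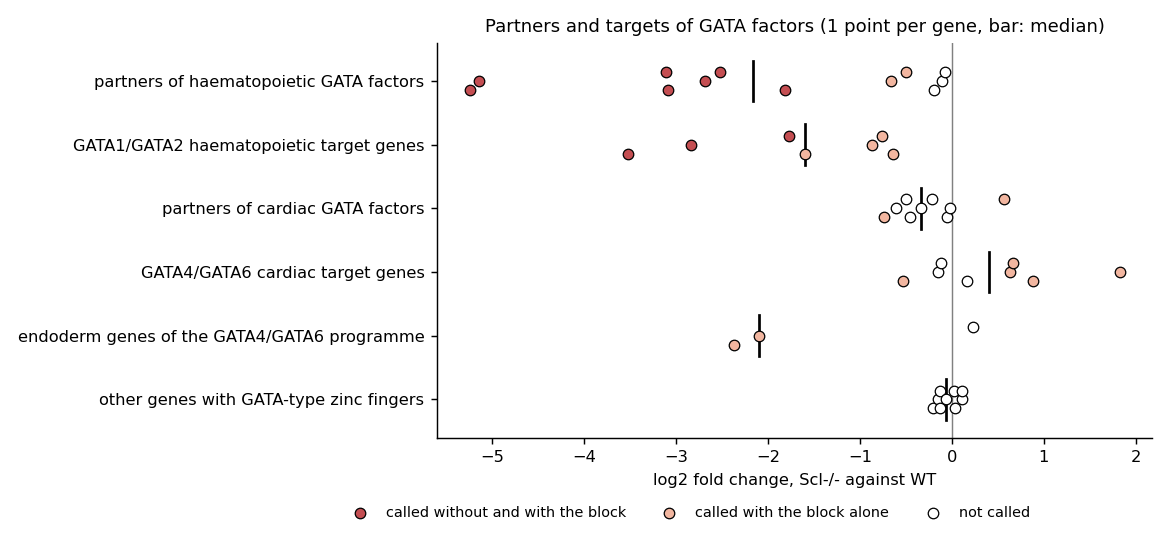
Log2 fold change, Scl-/- against WT, of each tested gene in 6 lists of GATA partners, targets and relatives, with bars at the medians. Dark red points were called in both fits, pale points with the block alone, and white points in neither. Haematopoietic partners and targets had medians of -2.16 and -1.59, cardiac partners and targets of -0.33 and 0.40, endoderm genes of -2.10 and the other zinc-finger genes of -0.07. The haematopoietic partners include Tal1, the disrupted gene.

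The 5 members lie on 5 chromosomes, whose tested genes had median log2 fold changes between -0.01 and 0.01. Chromosomes 1 and 11, which hold no member, had medians of -0.29 and 0.31. The genes next to the members on the chromosome did not pass the thresholds. Over the 10 nearest tested neighbours, at distances of 5.38 to 2776 kb, log2 fold changes ran from -0.44 (Hdac6, 11.4 kb from Gata1) to 0.42 (Rpn1, 88.6 kb from Gata2). Limma called 0 of the 10 without and 0 with the block, with 1 and 3 at an unadjusted p under 0.05. Rpn1 had the lowest adjusted p in both fits (limma, 0.0534, or 0.00188 with the block). It was at 197 ± 9.58 CPM in WT and 264 ± 8.81 CPM in Scl-/- cells (SD, n = 3), in the opposite direction to Gata2. Hdac6, in the same direction as Gata1, had a limma adjusted p of 0.0364 with the block. Both genes missed the fold threshold. Eefsec, on the other side of Gata2, was at -0.01. Next to Gata1, Rpl22-ps1 was at -0.04, next to Gata4, Neil2 was at -0.25 and Mtmr9 at -0.13, and next to Gata6, Mib1 was at -0.13 and Rbbp8 at 0.08.

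The genes whose log2(CPM + 0.5) followed each member most closely over the 6 libraries were taken from the 13953 genes that averaged 1 CPM or more. For Gata1 they were Gfi1b (r = 0.999), Prokr1 (0.999) and Rpp25 (0.998). For Gata2 they were Zfp185 (0.997), Parm1 (0.996) and Abcb10 (0.996). For Gata3 they were Stard8 (0.999), Frmd6 (0.996) and Dpf1 (0.995). For Gata4 they were Pcdh7 (0.999), Sema7a (0.998) and Hs3st3b1 (0.997), and for Gata6 Gpc4 (0.999), Lhx1 (0.997) and Dlc1 (0.997). These values describe 6 libraries that share their groups and replicate numbers. No gene was among the 3 most similar of more than 1 member.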

How the data were processed

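RNA-seq of FLK1+ cells from 3 WT and 3 Scl-/- differentiations was analysed from 1 deposited table of CPM values for 14005 genes. The authors aligned reads to mm9 with TopHat2 2.0.8b, removed duplicate read pairs, kept mapped reads by quality with SAMtools 0.1.19 and normalized with the TMM method of edgeR. The counting tool, its annotation and its use of strand are not given in the sources used here. CPM values were whole multiples of 1 step per library, which gave the reads per gene, and no count model was run. Removal of duplicates can limit highly expressed genes.

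Genes that reached 0.5 CPM in 3 or more libraries were tested on log2(CPM + 0.5) with limma 3.58.1 (lmFit, and eBayes with an intensity trend) in R 4.3.3, with condition as the only term and Benjamini-Hochberg adjustment. The test was tried on simulated data. A second fit had the replicate number as a block. Groups and numbers came from the sample labels. The study design names 3 independent differentiations. Deviations from group means correlated across genes at 0.59, 0.76 and 0.75 between libraries of the same number, against -0.62 to -0.10 otherwise, so libraries were treated as pairs. Deviations cancel out within a group, so the negative values come with the positive ones and are no separate support for the pairing. Alternatives were a pseudocount of 0.1 or of 1, all genes unfiltered, genes averaging 2 CPM or more, median-ratio rescaling, no trend, chromosome centring and each library left out. Python 3.11.15 (pandas 2.3.3, NumPy 2.4.6, SciPy 1.17.1, Matplotlib 3.10.9) served for the other steps.

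The members, gene lists and markers were chosen with earlier results of these data known. Genes named are the members and Tal1, the called and the most abundant genes of each list, the nearest neighbours, the 3 genes most like each member, and the markers. Genes outside this rule, such as those not called in a list and those that overlap a member, were chosen after their values were seen.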

Additional observations from a re-analysis of the deposited data

How the results depend on the processing

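Of 13991 genes, 330 were called without the replicate block. The block raised this to 1768 and the GATA members called from 2 to 4; the block with chromosome centring gave 1495 genes and 4 members. Leaving out 1 library without the block gave 44 to 384 genes and 0 to 3 members. The lowest counts came without WT replicate 1, 0 members being called there, and 3 members were called without WT replicate 2. With 1 library left out, counts of genes were also low without WT replicate 3 (128), Scl-/- replicate 2 (129) and Scl-/- replicate 3 (162). With the block and both libraries numbered 1, 2 or 3 left out, settings chosen after seeing the data, 2062, 1122 and 1210 genes and 5, 4 and 2 members were called. The cause was not tested. Pseudocounts, filters, median-ratio rescaling, no trend and chromosome centring without the block left Gata1 and Gata2 as the called members, with Gata1 between -4.44 and -2.61. Ratios of Gata1 to the other members changed by -1.06 to -3.88 with the pseudocount of 0.5 and by -2.79 to -5.63 without one, a setting chosen after seeing the data. No member changed direction under any of these settings. Depth limits the Scl-/- level of Gata1, at 6 to 11 reads a library, and of no other member.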
